A study of Homo sapiens with 11 samples.

Results

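Aminoacyl-tRNA synthetases are the enzymes that attach each amino acid to its transfer RNA, the step that lets the ribosome read the genetic code. Human cells keep separate nuclear genes for the cytosolic enzymes and for those imported into mitochondria, apart from GARS (glycine) and KARS (lysine), which supply both compartments. Several cytosolic enzymes sit in the multi-tRNA synthetase complex, held together by the scaffold proteins AIMP1, AIMP2 and EEF1E1. Many cytosolic synthetase genes are also known as targets of ATF4, the transcription factor of the integrated stress response, which is translated when phosphorylation of the initiation factor eIF2α lowers general protein synthesis.

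The genes described here are the 36 synthetase genes of a fixed list of symbols, 20 cytosolic and 16 mitochondrial, of 23228 genes in the files. Symbols ending in 2 were taken as mitochondrial. All 36 were found and all 36 passed the filter on low counts. The fewest reads of a cytosolic member in any library were 823 (FARSB) and the fewest of a mitochondrial member were 125 (PARS2).

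RNA-seq of total RNA was carried out on MDA-MB231, a basal breast cancer line, and U2OS, an osteosarcoma line. Each line was given 8 h of doxorubicin at 1 µM, etoposide at 20 µM, methyl methanesulfonate (MMS) at 40 µg/mL, paclitaxel at 0.2 µM, or the solvent DMSO. Doxorubicin and etoposide trap topoisomerase II on DNA (doxorubicin also intercalates), MMS is a methylating agent, and paclitaxel stabilises microtubules. There was 1 library for each line and drug, with DMSO once in U2OS and in 2 replicates in MDA-MB231. Of the latter, replicate 1 has the title form of the doxorubicin, etoposide and paclitaxel libraries. Replicate 2 has the 8 h title form of the MMS library, and while labelled DMSO it is described as not treated. The design text sets each dose at the 72 h IC50. The labels name no genetic change in either line and give no separate cultures, so the spread between the DMSO replicates may be technical. With 1 library for each line and drug, the spread behind each test comes from differences between the lines in their drug changes. It does not measure the spread between replicate cultures.

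The 11 libraries held between 16774156 and 31588683 gene counts. Reads mapping to several places made up between 28.4% and 37.5%, the top value being the U2OS doxorubicin library. SPARC, a mesenchymal matrix gene, stood at 935 CPM (18247 reads) in U2OS DMSO and had 38 and 12 reads in MDA-MB231 DMSO replicates 1 and 2. The keratin KRT19 was at 0.205 CPM in U2OS DMSO and at 167 and 132 CPM in those of MDA-MB231. Other markers did not separate the lines that way: KRT8 and KRT18 were higher in U2OS DMSO (550 and 409 CPM) than in MDA-MB231 DMSO replicate 1 (225 and 202 CPM), and CDH11, listed as mesenchymal, was lower (16.2 against 286 CPM). The bone genes SP7 and COL1A2 had 0 reads in U2OS DMSO. Below, CPM are counts scaled to library size with TMM factors, and a ratio within 1 line compares 1 library with 1 library and has no replicate check. CPM are shares of a library, so a lower share in some cells and less of the mRNA in every cell cannot be told apart.

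Cytosolic synthetase mRNAs had a higher median level per length of exon than mitochondrial ones in the DMSO libraries. The exon length joins all annotated exons of a gene. It is not the length of a single transcript, so ranks between genes are approximate. On the scale of CPM per kb of exon, the median level over the 20 cytosolic genes was 45.9 in U2OS, 49.3 in MDA-MB231 replicate 1 and 57.2 in replicate 2. For the 16 mitochondrial genes the medians were 8.96, 8.39 and 9.08. TARS (threonine) had the highest level in U2OS at 103 CPM per kb. FARSA, the catalytic subunit of the phenylalanine enzyme, led MDA-MB231 replicate 1 at 123, and GARS led replicate 2 at 134. IARS2 (isoleucine) had the highest mitochondrial level, at 47.9, 69.9 and 73.0 CPM per kb.

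MMS raised GARS, CARS (cysteine), SARS (serine), WARS (tryptophan), YARS (tyrosine), MARS (methionine), TARS, NARS (asparagine) and EPRS, the fused glutamate and proline enzyme. In the fit over all libraries these were 9 of 20 cytosolic genes higher, with 0 lower, at adjusted p under 0.05. Among all 15888 genes tested, 5.23% were called higher and 5.16% lower. The median log2 change over the 20 cytosolic genes was 0.49, against -0.04 over all genes tested. Of the 16 mitochondrial genes, 0 were higher and 1 was lower, with a median of -0.30.

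**Figure D1:**
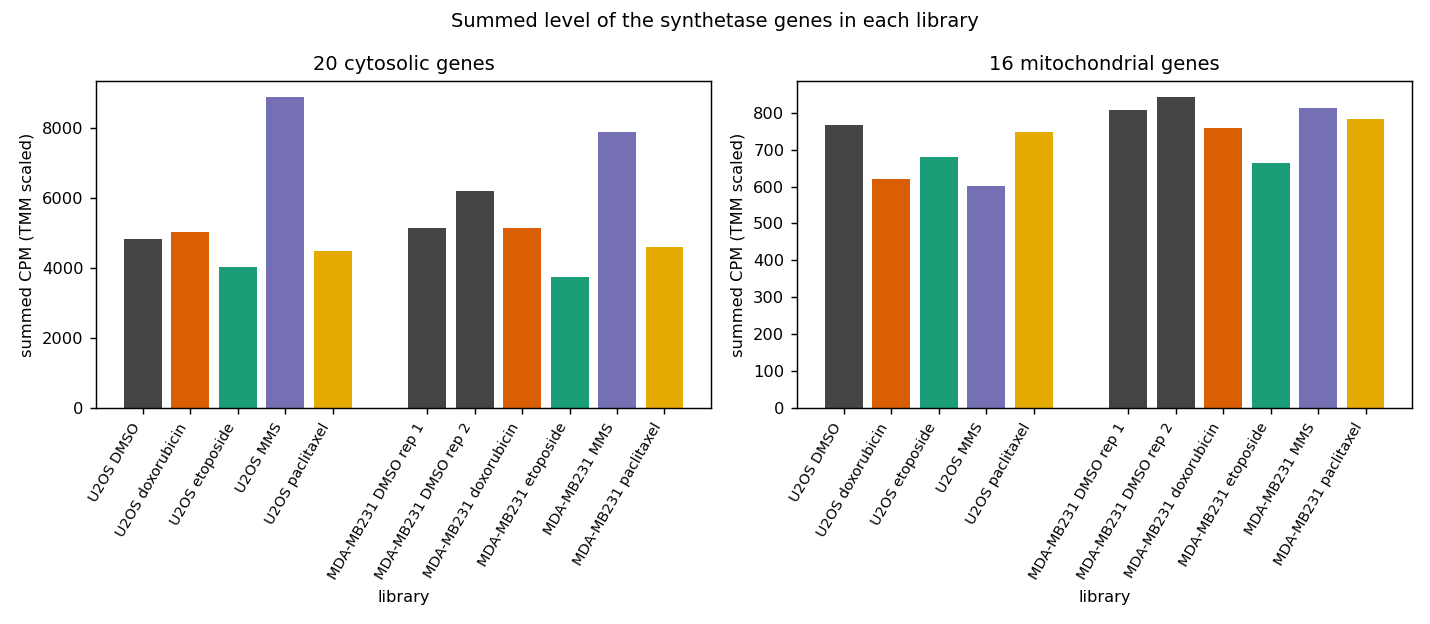
Summed CPM of the 20 cytosolic (left) and 16 mitochondrial (right) synthetase genes in each of the 11 libraries, 1 bar per library, coloured by treatment. The MMS bars are the tallest of the cytosolic sums in both lines, at 8897 and 7874 CPM.

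The summed level of the cytosolic genes in U2OS was 4828 CPM with DMSO and 8897 CPM with MMS. In MDA-MB231 the sum was 5136 CPM in DMSO replicate 1, 6201 CPM in DMSO replicate 2 and 7874 CPM with MMS. The MMS libraries held the highest cytosolic sums of the 11, and MDA-MB231 DMSO replicate 2 the third highest. On the same TMM scale, mitochondrial sums ran from 602 CPM in U2OS with MMS to 843 CPM in MDA-MB231 DMSO replicate 2.

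GARS had the largest fitted change with MMS and the largest ratio within U2OS, while in MDA-MB231 the ratio of SARS was larger (0.88 against 0.80 on the log2 scale). In U2OS GARS stood at 281 CPM with DMSO, 1124 under MMS, 216 under doxorubicin, 270 under etoposide and 246 under paclitaxel. The MDA-MB231 values were 341 CPM in DMSO replicate 1, 558 in DMSO replicate 2, 972 under MMS, 263 under doxorubicin, 319 under etoposide and 311 under paclitaxel. Both MMS libraries lay above the other 9, and DMSO replicate 2 was the highest of those 9. The fitted log2 change of GARS with MMS was 1.48 ± 0.23 (SE, adjusted p = 0.0096).

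SARS charges serine and also has a selenocysteine tRNA among its substrates. Its U2OS levels were 255 CPM with DMSO, 860 under MMS, 199 under doxorubicin, 293 under etoposide and 231 under paclitaxel. In MDA-MB231 it was at 262 and 308 CPM in DMSO replicates 1 and 2, 565 under MMS, 221 under doxorubicin, 273 under etoposide and 245 under paclitaxel. The 9 libraries without MMS lay within 199 and 308 CPM, so the MMS libraries stood apart in both lines. The log2 change was 1.37 ± 0.19 (SE, adjusted p = 0.0075).

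CARS stood in U2OS at 82.6 CPM with DMSO, 329 under MMS, 83.5 under doxorubicin, 123 under etoposide and 81.3 under paclitaxel. In MDA-MB231 it was at 122 and 172 CPM in the DMSO replicates, 285 under MMS, 99.7 under doxorubicin, 154 under etoposide and 130 under paclitaxel. Both MMS values again exceeded the rest, and the log2 change was 1.41 ± 0.24 (SE, adjusted p = 0.013).

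WARS is the tryptophan enzyme and is also known as an interferon-induced gene. It was at 103 CPM in U2OS DMSO, 311 under MMS, 185 under doxorubicin, 99.4 under etoposide and 97.2 under paclitaxel. MDA-MB231 gave 158 and 196 CPM in the DMSO replicates, 326 under MMS, 271 under doxorubicin, 138 under etoposide and 156 under paclitaxel. WARS thus stood above every DMSO value of its line with doxorubicin as well as with MMS. Its log2 change was 1.21 ± 0.18 with MMS (SE, adjusted p = 0.0093) and 0.69 ± 0.19 with doxorubicin (adjusted p = 0.019). Of 14 other interferon-induced genes, 0 rose and 1 fell with MMS, while 4 rose and 1 fell with doxorubicin. Over all genes, MMS called 5.23% higher and 5.16% lower, and doxorubicin 21.9% and 20.6%.

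The other 5 genes called higher had log2 changes of 0.97 ± 0.20 (YARS), 0.82 ± 0.19 (MARS), 0.82 ± 0.15 (TARS), 0.72 ± 0.17 (NARS) and 0.50 ± 0.13 (EPRS). EPRS passed narrowly, at an adjusted p of 0.047. AARS (alanine) had a change of 0.76 ± 0.28 and IARS (isoleucine) of 0.47 ± 0.13, and neither passed (adjusted p = 0.11 and 0.054). GENCODE release 29 was used here for overlaps as well as exon lengths. In it, exons of 20 of the 36 members overlap those of another gene, and 11 members have a named pseudogene. Exons of MARS overlap those of DDIT3 on the opposite strand. DDIT3, a stress-induced transcription factor, rose by 3.28 ± 0.37 with MMS, and the sources used here do not state whether counting used strand, so the MARS value is uncertain.

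The U2OS MMS library held the highest CPM of any member, that of TARS. Its U2OS values were 586 CPM with DMSO, 1276 under MMS, 393 under doxorubicin, 476 under etoposide and 564 under paclitaxel. The MDA-MB231 values were 553 and 568 CPM in the DMSO replicates, 797 under MMS, 378 under doxorubicin, 396 under etoposide and 481 under paclitaxel. MMS gave the highest and doxorubicin the lowest value in each line.

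YARS stood in U2OS at 251 CPM with DMSO, 641 under MMS, 200 under doxorubicin, 214 under etoposide and 233 under paclitaxel, and in MDA-MB231 at 250 and 331 CPM in the DMSO replicates, 468 under MMS, 229 under doxorubicin, 171 under etoposide and 232 under paclitaxel. NARS gave 257 CPM with DMSO, 538 under MMS, 304 under doxorubicin, 252 under etoposide and 227 under paclitaxel in U2OS, and 291 and 337 CPM in the DMSO replicates, 423 under MMS, 314 under doxorubicin, 245 under etoposide and 256 under paclitaxel in MDA-MB231. For MARS the U2OS values were 276 CPM with DMSO, 632 under MMS, 254 under doxorubicin, 292 under etoposide and 254 under paclitaxel, and the MDA-MB231 values 195 and 250 CPM in the DMSO replicates, 317 under MMS, 204 under doxorubicin, 189 under etoposide and 175 under paclitaxel. All 3 genes were highest with MMS in each line, by a smaller margin over the DMSO library in MDA-MB231 than in U2OS.

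AARS was at 202 CPM with DMSO, 446 under MMS, 89.8 under doxorubicin, 185 under etoposide and 188 under paclitaxel in U2OS, and at 175 and 226 CPM in the DMSO replicates, 273 under MMS, 128 under doxorubicin, 100.8 under etoposide and 160 under paclitaxel in MDA-MB231. IARS was at 436 CPM with DMSO, 693 under MMS, 506 under doxorubicin, 248 under etoposide and 397 under paclitaxel in U2OS, and at 517 and 713 CPM in the DMSO replicates, 854 under MMS, 610 under doxorubicin, 273 under etoposide and 436 under paclitaxel in MDA-MB231. Both were highest with MMS in each line although neither passed the MMS test, and both were lowest with etoposide in MDA-MB231.

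At the other end of the cytosolic set, VARS (valine) had a log2 change of -0.70 ± 0.22 with MMS and QARS (glutamine) of -0.47 ± 0.15. Neither passed the test (adjusted p = 0.072 and 0.075). The U2OS levels of VARS were 284 CPM with DMSO, 141 under MMS, 448 under doxorubicin, 95.1 under etoposide and 267 under paclitaxel. Those in MDA-MB231 were 346 and 401 CPM in the DMSO replicates, 329 under MMS, 399 under doxorubicin, 142 under etoposide and 305 under paclitaxel. VARS was thus lowest with etoposide in each line, and with MMS it was next lowest in U2OS. With doxorubicin its log2 change of 0.55 ± 0.21 did not pass (adjusted p = 0.061).

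Of the mitochondrial genes, YARS2 had the highest value with MMS, a log2 change of 0.58 ± 0.18, which did not pass (adjusted p = 0.071). It was at 38.4 CPM with DMSO, 55.1 under MMS, 26.6 under doxorubicin, 40.5 under etoposide and 37.0 under paclitaxel in U2OS, and at 28.8 and 36.2 CPM in the DMSO replicates, 54.4 under MMS, 19.8 under doxorubicin, 40.8 under etoposide and 27.4 under paclitaxel in MDA-MB231. YARS2 was highest with MMS and lowest with doxorubicin in each line, and its MMS minus doxorubicin difference of 1.11 ± 0.22 (SE) passed (adjusted p = 0.0037).

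CARS2 (cysteine) had -0.57 ± 0.27 with MMS and IARS2 had -0.50 ± 0.17, and neither passed (adjusted p = 0.19 and 0.095). CARS2 was at 24.0 CPM with DMSO, 13.7 under MMS, 25.6 under doxorubicin, 17.7 under etoposide and 22.5 under paclitaxel in U2OS, and at 34.7 and 42.9 CPM in the DMSO replicates, 37.1 under MMS, 41.7 under doxorubicin, 15.4 under etoposide and 32.5 under paclitaxel in MDA-MB231. IARS2 was at 200 CPM with DMSO, 113 under MMS, 228 under doxorubicin, 142 under etoposide and 183 under paclitaxel in U2OS, and at 291 and 304 CPM in the DMSO replicates, 277 under MMS, 378 under doxorubicin, 200 under etoposide and 286 under paclitaxel in MDA-MB231. In U2OS both were lowest with MMS, while in MDA-MB231 both were lowest with etoposide.

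The 12 cytosolic genes often named as ATF4 targets accounted for all 9 of the MMS rises. All 12 had a log2 change above 0, with a median of 0.82. Of the other 8 cytosolic genes, 0 were called in either direction, with a median of -0.15. This list comes from general knowledge and was drawn up with earlier results of these data known. Of the 8 enzymes of the multi-tRNA synthetase complex 2 rose, MARS and EPRS, with a median of 0.14. Of the 12 cytosolic enzymes outside it 7 rose, with a median of 0.79. Over all genes MMS called 5.23% higher and 5.16% lower. The split by complex is mixed with the ATF4 list. Of the complex, only EPRS, IARS, LARS and MARS are on that list, and all 9 rises are. The difference between enzymes inside and outside the complex was not tested.

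**Figure D2:**
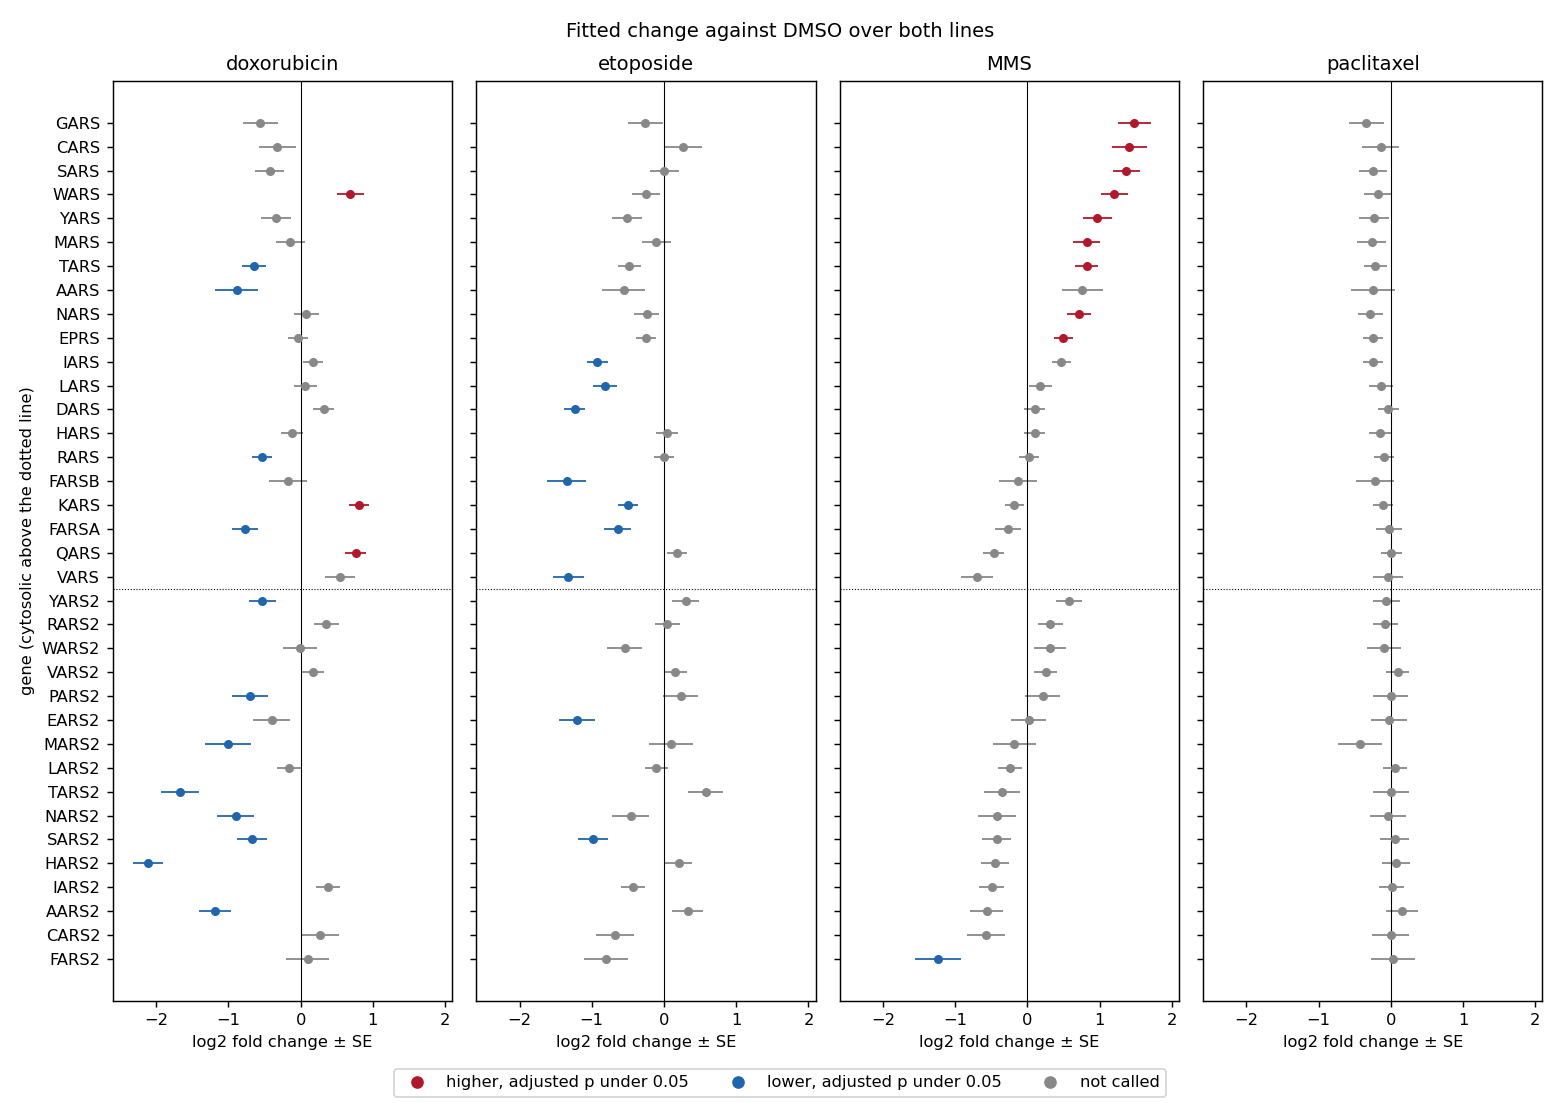
Fitted log2 fold change against DMSO with its SE (x axis) for each of the 36 genes (y axis, cytosolic above the dotted line) with each drug over both lines. Red points are the 9 genes called higher with MMS and the 3 with doxorubicin, and blue points are those called lower.

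Near the start sites of these genes the RefSeq promoter table was searched for the core of the C/EBP-ATF response element, the DNA element that ATF4 and its partners are known to bind. The letters searched were TGATGNAA, with N any base, on both strands, from 250 bases before to 50 bases after each start. All 36 members matched RefSeq genes and 30 had a window; DARS, LARS, VARS, YARS, AARS2 and VARS2 had none. The motif occurred in windows of 8 of 30 members, against 4.46% of 27305 genes and 3.62% of 35116 windows in the whole table. It was in 7 of 10 genes of the ATF4 list with a window, in 0 of 6 other cytosolic genes and in 1 of 14 mitochondrial genes (YARS2). The stricter form TGATGCAA, which is contained in the first, was in 6 members, all of the ATF4 list, against 1.08% of genes. The ATF4 list comes from general knowledge and was drawn up with earlier results of these data known. The contrast between that list and the other cytosolic genes is therefore no independent test. A match of letters is a description and not a shown binding site.

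The 60-base stretches below are shown because 5 of the 7 cytosolic matches lie within 14 bases of the start. They are RefSeq sequence of build GRCh38.p14, printed 5′ to 3′ on the strand of the gene, with the motif, on whichever strand it matched, in capitals. In CARS, IARS, MARS, NARS and TARS the base at position 31 of the stretch is the start site. The locations are chr11:3057394-3057453 (CARS, minus strand), chr9:92293668-92293727 (IARS, minus), chr12:57488038-57488097 (MARS, plus), chr18:57621807-57621866 (NARS, minus) and chr5:33440935-33440994 (TARS, plus). Those of the other two are chr7:30594819-30594878 (GARS, plus) and chr16:70289660-70289719 (AARS, minus).
CARS: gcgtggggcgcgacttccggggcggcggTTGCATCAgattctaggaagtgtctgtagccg
IARS: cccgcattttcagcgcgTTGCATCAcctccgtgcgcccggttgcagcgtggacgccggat
MARS: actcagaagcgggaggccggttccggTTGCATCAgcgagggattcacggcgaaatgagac
NARS: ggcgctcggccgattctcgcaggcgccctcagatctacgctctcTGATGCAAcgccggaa
TARS: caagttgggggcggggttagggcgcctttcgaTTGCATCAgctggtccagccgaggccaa
GARS: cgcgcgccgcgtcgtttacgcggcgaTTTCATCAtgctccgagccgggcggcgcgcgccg
AARS: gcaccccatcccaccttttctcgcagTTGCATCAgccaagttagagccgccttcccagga

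The motif began 13 bases before the start in IARS, 4 in MARS and 2 in CARS, and 2 bases after it in TARS and 14 in NARS. In GARS it began 33 bases before the second listed start and in AARS 187 bases before the start. Every strict match but that of NARS reads TTGCATCA on the gene's own strand. Of the 9 genes called higher after MMS, 8 had a window and 5 of those held the motif. SARS, WARS and EPRS were the 3 without it, and the fitted changes of SARS and WARS were larger than those of MARS, NARS and TARS.

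MMS differed from the other drugs when the difference itself was tested in the same fit. In U2OS the drugs share the same DMSO library, so only the direct contrasts are given. In MDA-MB231, MMS was set against DMSO replicate 2 and the other drugs against replicate 1. Replicate 2 was above replicate 1 by a median log2 of 0.26 over the cytosolic genes and by 0.71 for GARS. MMS minus etoposide was positive for 14 cytosolic genes and negative for 0 at adjusted p under 0.05, with a median log2 difference of 1.07 over the 20. The background shares were 4.73% higher and 4.33% lower. All 12 genes of the ATF4 list were among the 14, the others being DARS (aspartate) and FARSB, the second subunit of the phenylalanine enzyme. Not all 14 were called higher with MMS against DMSO. DARS, FARSB and LARS had 0.10, -0.13 and 0.18 with MMS, none called, and -1.24, -1.35 and -0.82 with etoposide, all called. AARS and IARS were not called with MMS either.

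Against paclitaxel, 10 cytosolic genes were higher with MMS and 0 lower (background 3.41% and 3.85%). All 10 belong to the ATF4 list. Against doxorubicin, 10 were higher and 3 lower (background 20.4% and 22.3%). The 3 lower ones were KARS, QARS and VARS, with log2 differences of -0.99 ± 0.17, -1.23 ± 0.18 and -1.25 ± 0.26 (SE). The largest positive differences from doxorubicin were GARS at 2.04 ± 0.27 and SARS at 1.8 ± 0.23. WARS was not called in that contrast. Among mitochondrial genes, 4 were higher with MMS than with doxorubicin (HARS2, TARS2, YARS2 and PARS2) and 2 lower (FARS2 and IARS2).

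The MMS ratios were larger in U2OS than in MDA-MB231. The median ratio within a line over the 12 genes of the ATF4 list was 1.17 on the log2 scale in U2OS and 0.41 in MDA-MB231. For GARS the ratios were 2.0 (95% interval 1.96 to 2.04) and 0.80 (0.77 to 0.84), where the exact binomial interval covers counting error only. MDA-MB231 DMSO replicate 2, the comparator of MMS in that line, was above replicate 1 by a median of 0.26 over the 20 cytosolic genes and by 0.71 for GARS. Set against DMSO replicate 1 instead, MMS gave 1.51 for GARS and a median of 0.53 over the cytosolic genes, in place of 0.27. Whether MMS acted differently in the 2 lines could not be tested with 1 library each.

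**Figure D3:**
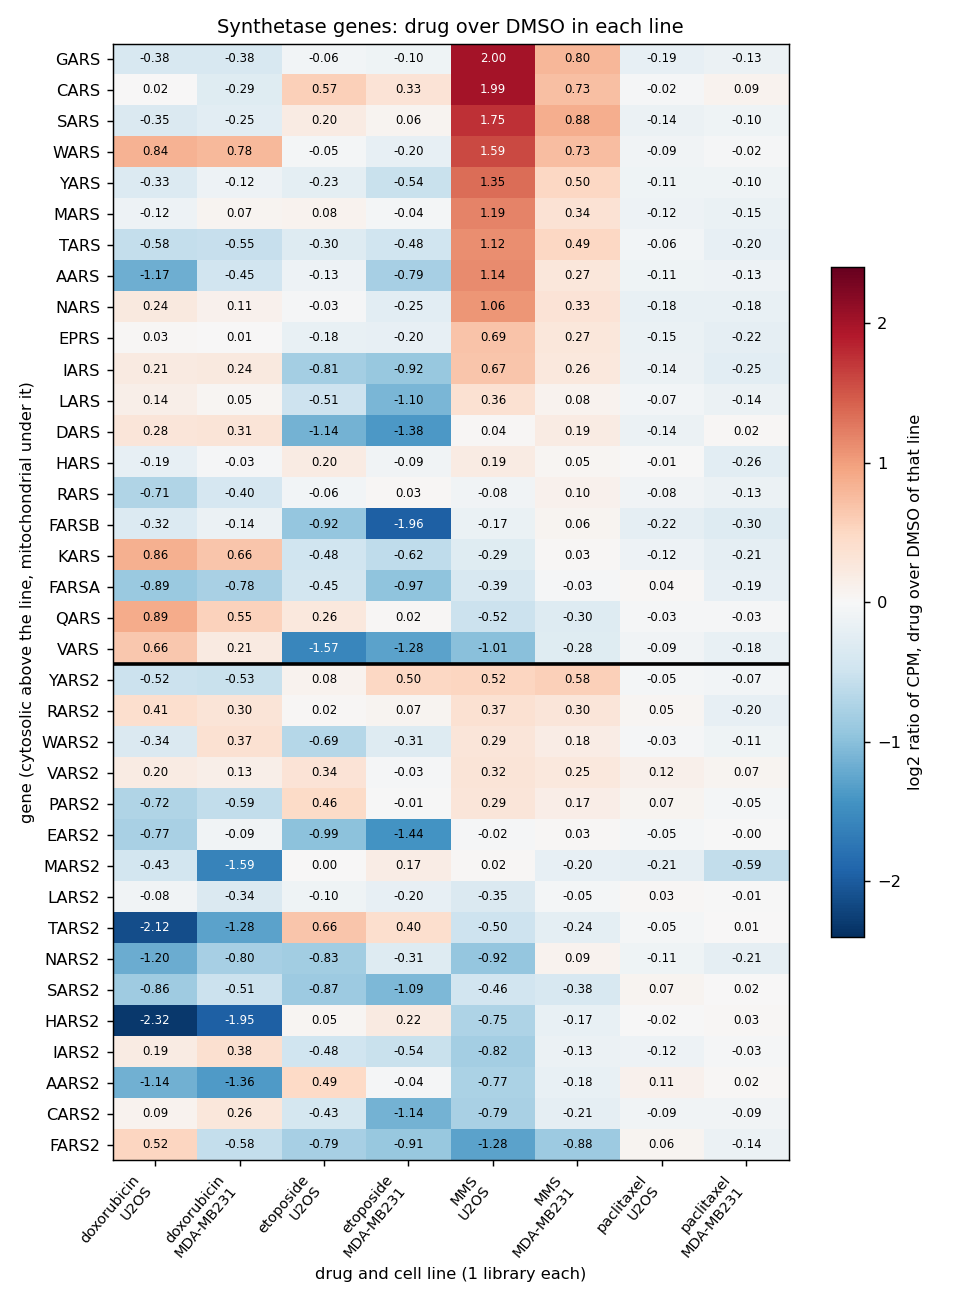
Log2 ratio of CPM, drug over DMSO of the same line, for each of the 36 genes (rows) in each of the 8 drug and line pairs (columns), 1 library each. The top rows are red for MMS in both lines and deeper in U2OS, and HARS2 and TARS2 are blue for doxorubicin in both.

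Doxorubicin lowered 8 of 16 mitochondrial genes and raised 0, with a median log2 change of -0.47 over the 16. Of the 20 cytosolic genes, 3 rose and 4 fell, with a median of -0.13. Doxorubicin changed many genes in all, with 21.9% called higher and 20.6% lower and a median of 0.07, so the cytosolic counts lie near or under the background and the 8 of 16 mitochondrial falls lie above it.

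HARS2, the mitochondrial histidine enzyme, fell most. Its U2OS levels were 52.4 CPM with DMSO, 31.0 under MMS, 10.1 under doxorubicin, 54.2 under etoposide and 51.8 under paclitaxel. In MDA-MB231 they were 45.0 and 44.1 CPM in the DMSO replicates, 39.1 under MMS, 11.3 under doxorubicin, 52.6 under etoposide and 45.9 under paclitaxel. The doxorubicin libraries were the lowest of the 11 by a wide margin. The log2 change was -2.12 ± 0.21 (SE, adjusted p = 0.00025), and the call held under all 21 alternatives.

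HARS2 lies head to head with HARS, the cytosolic histidine gene, on chromosome 5 in GRCh38.p14, with 84 bases between the gene starts. HARS stood at 92.5 CPM in U2OS DMSO and 80.8 with doxorubicin, and at 170 and 166 CPM in MDA-MB231 DMSO replicate 1 and doxorubicin. It was not called, at a log2 change of -0.12. One gene of the pair was called and the other was not; the difference between them was not tested. Exons of the pair overlap in GENCODE release 29. Those of HARS2 also overlap ZMAT2 on the same strand, and those of HARS overlap WDR55 on the opposite strand. Some reads of HARS or HARS2 may therefore be left uncounted or counted to another gene. The stretch between HARS and HARS2, chr5:140691371-140691454 on the strand of HARS2, is shown because both genes start from its ends. Of its bases, 59.5% are G or C.
HARS2 to HARS gap: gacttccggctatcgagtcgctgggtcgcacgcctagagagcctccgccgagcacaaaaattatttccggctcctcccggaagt

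TARS2 (mitochondrial threonine) was at 42.1 CPM in U2OS DMSO, 29.6 under MMS, 9.28 under doxorubicin, 67.0 under etoposide and 40.7 under paclitaxel. MDA-MB231 gave 45.4 and 40.4 CPM in the DMSO replicates, 34.1 under MMS, 18.4 under doxorubicin, 59.9 under etoposide and 45.7 under paclitaxel. It was lowest with doxorubicin and highest with etoposide in each line. The log2 change with doxorubicin was -1.67 ± 0.27 (SE, adjusted p = 0.0015). With etoposide it was 0.58 ± 0.25, which did not pass (adjusted p = 0.14).

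AARS2 (mitochondrial alanine) was at 50.2 CPM with DMSO, 29.3 under MMS, 22.5 under doxorubicin, 70.5 under etoposide and 54.3 under paclitaxel in U2OS, and at 39.8 and 33.4 CPM in the DMSO replicates, 29.4 under MMS, 15.2 under doxorubicin, 38.8 under etoposide and 40.4 under paclitaxel in MDA-MB231. MARS2 (mitochondrial methionine) was at 20.3 CPM with DMSO, 20.6 under MMS, 14.9 under doxorubicin, 20.3 under etoposide and 17.5 under paclitaxel in U2OS, and at 25.2 and 30.9 CPM in the DMSO replicates, 26.8 under MMS, 8.00 under doxorubicin, 28.4 under etoposide and 16.5 under paclitaxel in MDA-MB231. Doxorubicin gave the lowest value of each gene in both lines. Their log2 changes were -1.18 ± 0.23 and -1.0 ± 0.32 (SE). The remaining falls were those of NARS2, PARS2, SARS2 and YARS2, between -0.90 and -0.53. PARS2 (proline) and YARS2 passed narrowly, at adjusted p of 0.0497 and 0.046.

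KARS and QARS were the cytosolic genes that rose most with doxorubicin. KARS stood in U2OS at 295 CPM with DMSO, 240 under MMS, 534 under doxorubicin, 212 under etoposide and 272 under paclitaxel. In MDA-MB231 it was at 208 and 261 CPM in the DMSO replicates, 266 under MMS, 329 under doxorubicin, 136 under etoposide and 180 under paclitaxel. Doxorubicin gave its highest level and etoposide its lowest in each line. The log2 change was 0.81 ± 0.14 with doxorubicin (SE, adjusted p = 0.0020) and -0.50 ± 0.14 with etoposide (adjusted p = 0.041).

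QARS was at 238 CPM in U2OS DMSO, 166 under MMS, 443 under doxorubicin, 285 under etoposide and 234 under paclitaxel. In MDA-MB231 it was at 223 and 174 CPM in the DMSO replicates, 141 under MMS, 327 under doxorubicin, 227 under etoposide and 218 under paclitaxel. Doxorubicin gave its highest level and MMS its lowest in both lines. The log2 change with doxorubicin was 0.77 ± 0.15 (SE, adjusted p = 0.0033), and this call also held under all 21 alternatives. KARS and QARS have no counterpart ending in 2 among the members.

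The cytosolic genes that fell with doxorubicin were AARS at -0.89 ± 0.30, FARSA at -0.77 ± 0.18, TARS at -0.65 ± 0.16 and RARS (arginine) at -0.54 ± 0.14. AARS and TARS therefore stood below DMSO with doxorubicin and above it with MMS in both lines. By structural class, the 17 class II enzymes included 9 falls and 1 rise with doxorubicin and a median of -0.65. The 19 class I enzymes included 3 falls and 2 rises and a median of -0.004. The fused enzyme EPRS was counted in class I alone, although the proline enzyme PARS2 is listed as class II. Over all genes doxorubicin called 21.9% higher and 20.6% lower. Class is mixed with compartment here. Of the mitochondrial falls, AARS2, HARS2, NARS2, PARS2, SARS2 and TARS2 are class II, and MARS2 and YARS2 are class I. The difference between the classes was not tested.

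**Figure D4:**
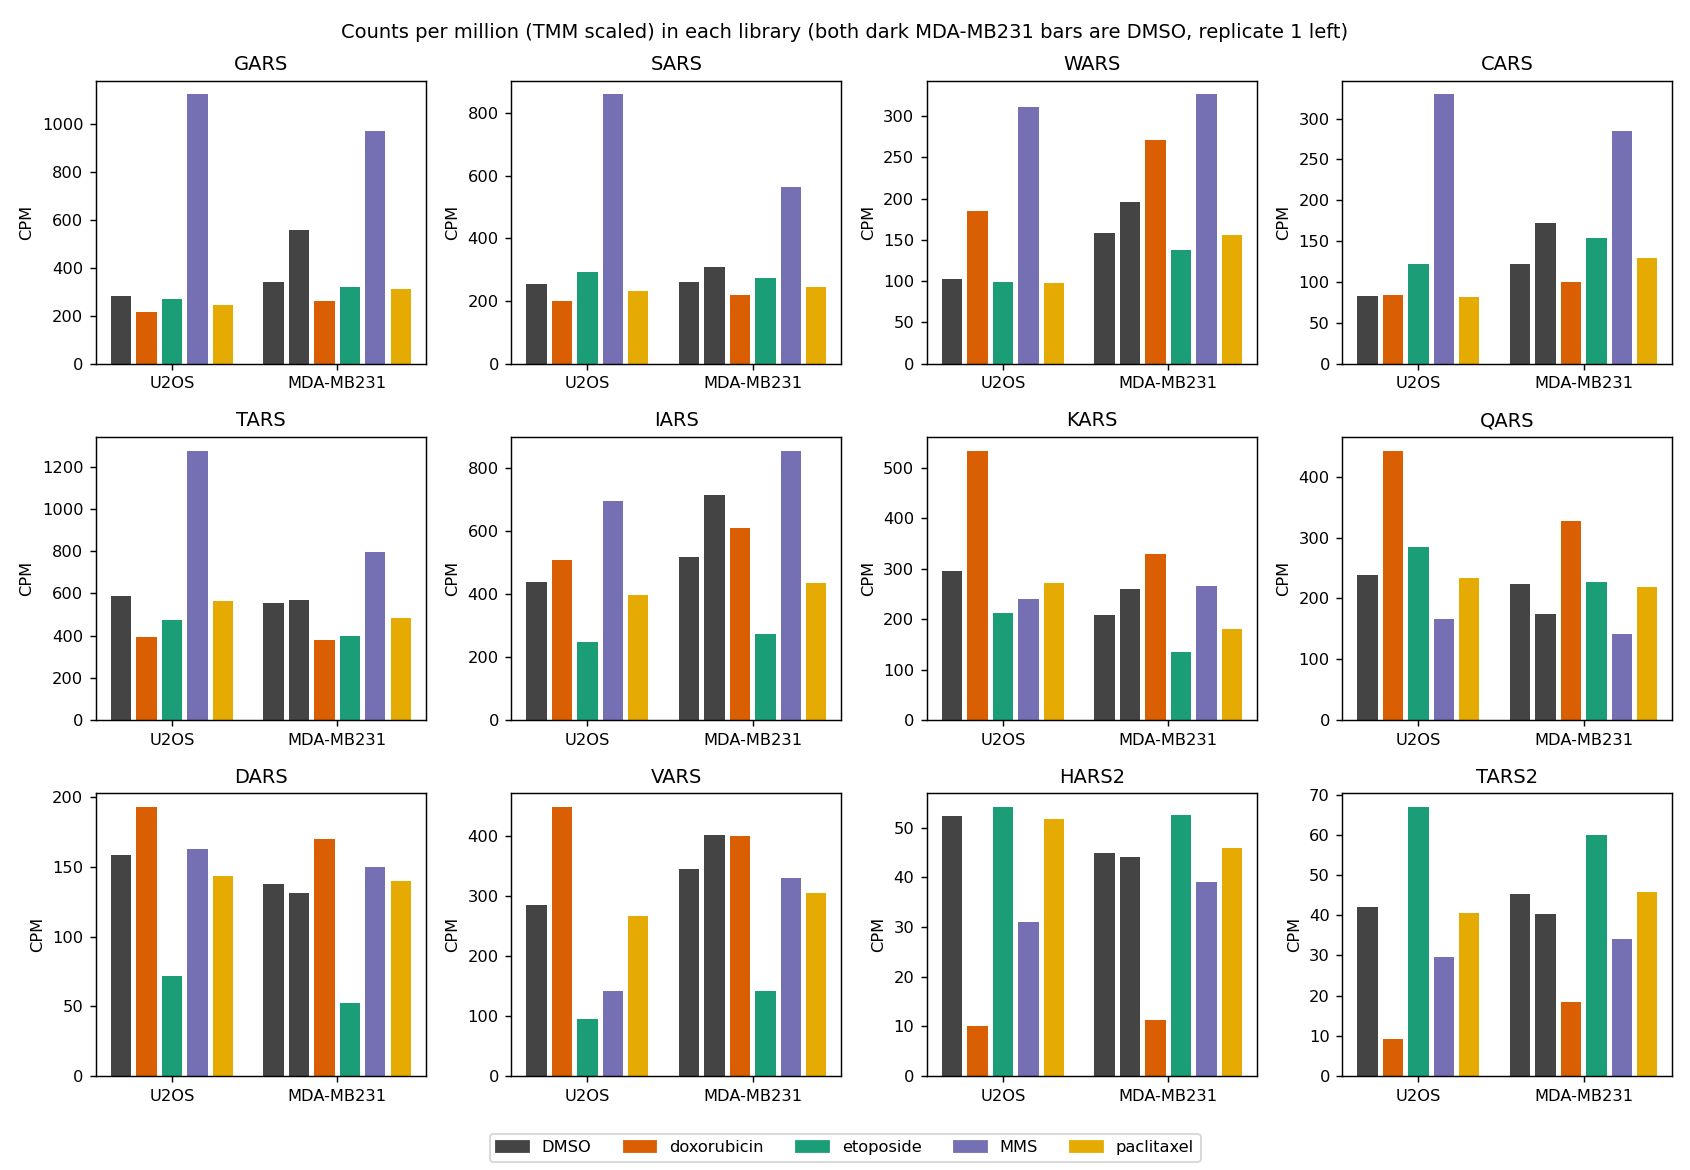
CPM of 12 synthetase genes in each of the 11 libraries (bars, each y axis from 0), U2OS left and MDA-MB231 right, coloured by treatment. GARS, SARS and CARS are highest with MMS in both lines, and HARS2 is lowest with doxorubicin, at 10.1 and 11.3 CPM.

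Etoposide lowered 7 of 20 cytosolic genes and raised 0, with a median log2 change of -0.37 against 0.02 over all genes. The background was 7.97% higher and 9.23% lower. The summed cytosolic level was 4037 CPM in U2OS and 3757 CPM in MDA-MB231, the lowest sum of each line on the TMM scale. With scaling to total counts the U2OS sum was 4725 CPM, above those with doxorubicin (4200) and paclitaxel (4691), and the cytosolic median ratio within U2OS was 0.032 in place of -0.15. Outside the ATF4 list 5 of 8 cytosolic genes fell (DARS, FARSA, FARSB, KARS and VARS), and 2 of the 12 in it (IARS and LARS, leucine).

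DARS was at 159 CPM in U2OS DMSO, 163 under MMS, 193 under doxorubicin, 71.9 under etoposide and 144 under paclitaxel. MDA-MB231 gave 138 and 131 CPM in the DMSO replicates, 150 under MMS, 170 under doxorubicin, 52.6 under etoposide and 140 under paclitaxel. The etoposide libraries were the lowest of the 11, and the log2 change was -1.24 ± 0.15 (SE, adjusted p = 0.0044). The levels of VARS given above were 95.1 CPM in U2OS and 142 CPM in MDA-MB231 with etoposide, a log2 change of -1.32 ± 0.22 (adjusted p = 0.0089).

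FARSB stood in U2OS at 144 CPM with DMSO, 128 under MMS, 115 under doxorubicin, 75.8 under etoposide and 124 under paclitaxel, and in MDA-MB231 at 104 and 120 CPM in the DMSO replicates, 125 under MMS, 95.1 under doxorubicin, 26.5 under etoposide and 84.7 under paclitaxel. Etoposide gave its lowest value in each line, farther from DMSO in MDA-MB231, and the log2 change was -1.35 ± 0.27 (SE, adjusted p = 0.015).

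IARS fell by 0.92 and LARS by 0.82 on the log2 scale with etoposide. Of the mitochondrial genes, 2 fell and 0 rose, with a median of -0.03. They were EARS2 (glutamate), at -1.21 ± 0.26, and SARS2 (serine), at -0.99 ± 0.21. EARS2 was at 52.1 CPM with DMSO, 51.3 under MMS, 30.3 under doxorubicin, 26.1 under etoposide and 50.5 under paclitaxel in U2OS, and at 31.2 and 44.2 CPM in the DMSO replicates, 45.3 under MMS, 29.3 under doxorubicin, 11.2 under etoposide and 31.1 under paclitaxel in MDA-MB231. The etoposide libraries held its lowest values in both lines. Exons of SARS2 overlap those of MRPS12, a mitochondrial ribosomal protein gene, so its value is uncertain.

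FARS2 (mitochondrial phenylalanine) was the one mitochondrial gene that fell with MMS. It was at 15.1 CPM in U2OS DMSO, 5.93 under MMS, 21.9 under doxorubicin, 8.52 under etoposide and 15.7 under paclitaxel. In MDA-MB231 it was at 26.9 and 25.2 CPM in the DMSO replicates, 13.5 under MMS, 17.8 under doxorubicin, 14.1 under etoposide and 24.3 under paclitaxel. MMS gave the lowest value in each line and etoposide the next lowest. The log2 change with MMS was -1.24 ± 0.32 (SE, adjusted p = 0.041), and this call was lost under 12 of 21 alternatives. Of the other phenylalanine genes, FARSB and FARSA were called lower with etoposide, as were 7 of 20 cytosolic genes and 9.23% of all genes.

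With paclitaxel, 0 of 36 genes passed in edgeR, as did 0% of all genes in either direction. None of the 36 had an unadjusted p under 0.05, and DESeq2 and limma-voom also called 0. With only the paclitaxel and matching DMSO libraries in the fit, 0 of 36 were called as well, 6 had an unadjusted p under 0.05, and over all genes 26 were called higher and 4 lower. The median over the cytosolic genes was -0.19, against 0.01 over all genes, and 19 of 20 values were below 0. The farthest from 0 were MARS2 at -0.43 ± 0.31 and GARS at -0.34 ± 0.24. The highest values were those of AARS2 at 0.16 ± 0.22, VARS2 at 0.10 ± 0.16, HARS2 at 0.07 ± 0.19 and LARS2 at 0.05 ± 0.17. VARS2 (valine) was at 46.4 CPM with DMSO, 57.8 under MMS, 53.4 under doxorubicin, 58.6 under etoposide and 50.5 under paclitaxel in U2OS, and at 62.2 and 45.2 CPM in the DMSO replicates, 53.9 under MMS, 68.3 under doxorubicin, 61.0 under etoposide and 65.3 under paclitaxel in MDA-MB231. LARS2 (leucine) was at 59.0 CPM with DMSO, 46.1 under MMS, 55.8 under doxorubicin, 54.9 under etoposide and 60.1 under paclitaxel in U2OS, and at 54.2 and 56.0 CPM in the DMSO replicates, 54.2 under MMS, 42.7 under doxorubicin, 47.1 under etoposide and 53.7 under paclitaxel in MDA-MB231. Their paclitaxel values lay close to the DMSO value of the same line and title form. The MDA-MB231 DMSO libraries stood in separate levels of the block. A fitted value draws on all libraries and need not lie between the ratios of the lines. The median ratio of the cytosolic genes within a line was -0.11 in U2OS and -0.14 in MDA-MB231, against the fitted median of -0.19.

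The mean response to the 4 drugs was compared between lines by a term for treated U2OS libraries. In edgeR 0 of 36 genes and 0% of all genes passed in either direction. None of the 36 had an unadjusted p under 0.05, and DESeq2 and limma-voom called 0 of them. All 12 genes of the ATF4 list had a positive value, with a median of 0.32, and the highest was CARS at 0.57 ± 0.37 (SE). Their median ratios in U2OS and MDA-MB231 were 1.17 and 0.41 with MMS and -0.052 and -0.055 with doxorubicin. They were -0.093 and -0.22 with etoposide and -0.12 and -0.14 with paclitaxel. The line-term median over the cytosolic genes was 0.22. It was 0.072 without the U2OS MMS library and 0.052 without MDA-MB231 DMSO replicate 2.

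Among 16 measured partners in charging and moving transfer RNA, 3 rose with MMS and 0 fell. These were SEPSECS, which makes selenocysteine on its tRNA, at 1.41 ± 0.23, XPOT, the tRNA exporter, at 0.91 ± 0.24, and YRDC, a tRNA modification enzyme, at 0.81 ± 0.15. With doxorubicin 0 rose and 5 fell, among them XPOT at -1.60 ± 0.26 and AIMP2 at -1.17 ± 0.30. With etoposide 0 rose and 3 fell, among them AIMP2 at -1.11 ± 0.29. The scaffold AIMP1 had 0.37 ± 0.14 with MMS and EEF1E1 had 0.20 ± 0.37, and neither passed. Of 14 translation elongation and mitochondrial translation factors, 0 were called with MMS, and 6 rose and 2 fell with doxorubicin. Over all genes MMS called 5.23% higher and 5.16% lower, doxorubicin 21.9% and 20.6%, and etoposide 7.97% and 9.23%.

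Of 33 tested genes of the integrated stress response other than synthetases, 28 rose and 1 fell with MMS, with a median of 1.63. Over all genes MMS called 5.23% higher and 5.16% lower. ATF4 itself was at 278 CPM in U2OS DMSO and 804 with MMS, and at 174 CPM in MDA-MB231 DMSO replicate 2 and 433 with MMS. Its log2 change was 1.47 ± 0.14. ASNS (asparagine synthetase, a target of ATF4) rose by 2.89 ± 0.50 and CHAC1 by 3.92 ± 0.33. With doxorubicin ATF4 was at 46.7 CPM in U2OS and 33.8 CPM in MDA-MB231, a log2 change of -2.44 ± 0.15, while 4 of the 33 rose and 8 fell, against 21.9% and 20.6% of all genes. With etoposide ATF4 had -0.02 ± 0.14, and 4 of the 33 rose and 2 fell, against 7.97% and 9.23% of all genes. With MMS, ATF4 mRNA moved the same way as the synthetase genes of its list. With doxorubicin, where ATF4 mRNA fell, 1 of the 12 genes of that list rose and 2 fell, with a median of -0.23. With etoposide 0 of them rose and 2 fell, with a median of -0.25. The part of ATF4 in their levels was not tested.

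The MMS calls rest on few libraries. Without the U2OS MMS library 0 of 36 were called, without the U2OS DMSO library 1, and without MDA-MB231 DMSO replicate 1 there were 4. Without the U2OS MMS library the cytosolic median was 0.27 in place of 0.49, with 17 of 20 values above 0. The etoposide calls fell from 9 to 0 without MDA-MB231 DMSO replicate 1, to 2 without the MDA-MB231 etoposide library and to 3 without the U2OS DMSO library. The doxorubicin calls fell from 15 to 5 without MDA-MB231 DMSO replicate 1, to 6 without the U2OS doxorubicin library and to 7 without the U2OS DMSO library. With scaling to total counts, the calls over all genes with doxorubicin were 37.6% higher in place of 51.5%, and the median of all genes moved from 0.07 to -0.15. The doxorubicin calls were then 2 rises and 6 falls among cytosolic genes and 8 falls among mitochondrial genes. With etoposide the share of higher calls was 64.3% in place of 46.3% and the median 0.15, with 5 cytosolic and 2 mitochondrial falls. For MMS minus doxorubicin the share was 61.8% in place of 47.8%, with 13 cytosolic genes higher and 3 lower. For MMS minus etoposide it was 35.7% in place of 52.2%, with 10 cytosolic genes higher and 1 lower.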

How the data were processed

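The deposited files hold 1 whole-number read count per gene and library, made by the authors; per the submitters' processing notes these involved CASAVA 1.8.2, TopHat2 2.0.8b and HTSeq with the hg19 build, while the sources used here name neither the gene annotation nor the use of strand. The 5 summary rows were left out of totals and tests. Counts were fitted with edgeR 4.0.16 in R 4.3.3 (TMM scaling, filterByExpr, robust quasi-likelihood test) over all 11 libraries. The fit had 4 drug terms and a block of 3 levels (U2OS, and MDA-MB231 by title form), leaving 4 residual degrees of freedom. Those degrees of freedom come from differences between the lines in their drug changes, not from replicate libraries. A fitted value draws on all libraries and can lie outside the ratios of both lines. The threshold was a Benjamini-Hochberg adjusted p of 0.05 over 15888 genes, and SE is the log2 change divided by the root of its F. Ratios within a line add 0.5 CPM to each value. The code was tested on simulated data. Alternatives were DESeq2 1.42.0, limma-voom (limma 3.58.1), other scalings, filters and blocks, and leaving out each library. Values in every library are given for the 4 highest and 4 lowest members per drug, for up to 8 called in each MMS minus drug contrast, and for WARS, GARS and KARS. The members and gene lists were chosen with earlier results of these data known.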

Additional observations from a re-analysis of the deposited data

Results flagged for a closer look

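The ratios of drug over DMSO within each line were compared for 144 gene and drug pairs, and 5 had opposite directions in the 2 lines with both counting intervals apart from 0. For FARS2 with doxorubicin the log2 ratios were 0.52 (U2OS) and -0.58 (MDA-MB231). WARS2, the mitochondrial tryptophan gene, had -0.34 and 0.37 with the same drug. The other 3 were small: HARS with etoposide (0.20 and -0.09), MARS with doxorubicin (-0.12 and 0.07) and RARS with MMS (-0.084 and 0.11). Each value compares 1 library with 1 library, and the difference between the lines was not tested.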

How the results depend on the processing

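With no block for line, the members called were 3 in place of 15 with doxorubicin, 0 in place of 9 with etoposide, 0 in place of 10 with MMS, 10 in place of 19 for MMS minus doxorubicin, 0 in place of 15 for MMS minus etoposide, 0 in place of 10 for MMS minus paclitaxel and 5 in place of 0 for the line term. The cytosolic genes higher with MMS were then 0 and the mitochondrial genes lower with doxorubicin 2. With only a drug's own libraries and their DMSO libraries, MMS called 2 members, both cytosolic and higher, and doxorubicin called 4 mitochondrial genes lower. Leaving out 1 library at a time gave 5 to 15 members with doxorubicin, 0 to 11 with etoposide, 0 to 13 with MMS, 5 to 21 for MMS minus doxorubicin, 0 to 19 for MMS minus etoposide and 0 to 11 for MMS minus paclitaxel. The cytosolic rises with MMS ran from 0 to 10 and the mitochondrial falls with doxorubicin from 3 to 8. Fewer libraries leave fewer residual degrees of freedom, and a lone library of an arm is assumed to vary like the others; the cause of the other shifts was not tested. No called direction was reversed. With scaling to total counts the median ratios within a line were -0.35 (cytosolic) and -0.77 (mitochondrial) for U2OS doxorubicin, 0.032 and 0.13 for U2OS etoposide and 0.74 (cytosolic) for U2OS MMS. For MDA-MB231 the cytosolic medians were -0.13 with doxorubicin and -0.28 with etoposide, and the mitochondrial sum of DMSO replicate 2 was 804 CPM. Against the other MDA-MB231 DMSO library the cytosolic medians were -0.31 with doxorubicin, -0.72 with etoposide, -0.40 with paclitaxel and 0.53 with MMS. Libraries were matched by the block of line and title form; the replicate numbers of the labels gave no further pairing, since the groups compared share fewer than 2 of them.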
